A study of Mus musculus with 60 samples.

Results

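The Bcl2 family genes described here are 10 genes of the table of 27238 genes, chosen by name: Bcl2, Bcl2l1, Bcl2l10, Mcl1, Bax, Bak1, Bcl2l11, Bid, Bad and Bik. All 10 were found by their Ensembl identifiers. They were measured by single-embryo RNA-seq in 60 mouse libraries, 3 in each of 20 groups. In vivo embryos came from superovulated C57BL/6 females mated with DBA2 males and were collected at 6 stages (1-cell, 2-cell, 4-cell and 8-cell embryos, morulas and blastulas). NTC embryos were made by injecting the nucleus of a cumulus cell (CC) of a BDF1 female, and NTM embryos by injecting the nucleus of a mouse embryonic fibroblast (MEF) of a BDF1 fetus, into an enucleated BDF1 oocyte. BDF1 is the cross of C57BL/6 and DBA2, so the nuclei of all groups shared that background. The oocytes did not: in vivo embryos came from C57BL/6 oocytes and NT embryos from BDF1 oocytes. NT embryos were activated with strontium chloride, exposed to the histone deacetylase inhibitor Scriptaid and cultured in vitro to the same 6 stages. The BDF1 oocyte donors were superovulated too. In vivo embryos were not cultured, so oocyte strain, nuclear transfer, activation, Scriptaid and culture cannot be told apart. NTC nuclei came from females, and the sex of in vivo and NTM embryos was not given. Embryos had been picked by their morphology, and the MEFs were passaged and serum-starved cells. The CC and MEF donor cells formed the other 2 groups.

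Bcl2 family proteins control the permeability of the outer mitochondrial membrane in the intrinsic pathway of apoptosis. Bax and Bak1 are the effectors that form pores and release cytochrome c. Bcl2, Bcl2l1 (Bcl-xL) and Mcl1 restrain them, and the BH3-only proteins Bcl2l11 (Bim), Bid, Bad and Bik bind these guardians or activate the effectors. Bcl2l10 was counted here with the anti-apoptotic members, and its action on apoptosis was not tested. An early mouse embryo starts on RNA stored by the oocyte and replaces it with its own transcripts from the 2-cell stage on.

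Values are RPKM, the reads of a gene scaled to the length of its transcript and to the depth of the library. Libraries held 5294167 to 47830132 reads on genes (median 15451428), and every donor library (31558140 or more) was deeper than every embryo library (26281508 or fewer). A value of 0 leaves up to 3 reads open by counting alone, a limit that leaves out losses before amplification. In whole embryos, fewer cells with a transcript and less RNA per cell cannot be told apart. In vivo blastulas stood apart: they had 7730 to 7808 genes above 0, against 11498 to 13568 in NT blastulas, and the lowest mean correlations with their own group (0.754 to 0.757). The summed RPKM of 6 fibroblast markers was 5144 to 7745 in MEFs and at most 11.1 in embryos, and that of 6 oocyte markers was 676 to 2966 at the 1-cell and 2-cell stages and at most 20.4 in morulas and blastulas. The 6 cumulus markers summed to 274 to 910 in CCs, but also to 495 to 1181 in MEFs, where 2 of the 6 reached a mean of 1 RPKM.

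Bcl2l10, counted here as an anti-apoptotic member and stored in the oocyte, was by far the most abundant member of the early stages. In vivo 1-cell embryos held 24791, 6308 and 5000 RPKM and 2-cell embryos 5103, 5760 and 9555. In NTC embryos the values were 4014, 4114 and 3477 at the 1-cell stage and 6850, 8350 and 6756 at the 2-cell stage. In NTM embryos they were 8824, 6138 and 7470, then 10849, 8453 and 9501. Thus all 18 libraries of these stages held 3477 RPKM or more, and the first in vivo 1-cell library stood far above the rest. By RPKM, Bcl2l10 had rank 1 of all genes in each of the 3 NTM 1-cell libraries, ranks 2 to 7 in in vivo 1-cell libraries and rank 7 in every NTC 1-cell library. It took 3.02% of all reads on genes in the first in vivo 1-cell library and 0.424% to 0.502% in NTC 1-cell libraries. At the 4-cell stage the in vivo values were 7.79, 6.44 and 5.27 RPKM and the NTM values 6.36, 12.4 and 5.87. NTC 4-cell embryos held 50.8, 14.9 and 111 RPKM, above all libraries of the other 4-cell groups. The oocyte markers summed to 48.2 to 70.9 RPKM in in vivo, 44.3 to 99.3 in NTC and 51.6 to 255 in NTM 4-cell embryos, and their part in the Bcl2l10 values was not tested. From the morula on no library exceeded 7.39 RPKM, and CCs held 9.72, 7.49 and 7.71 RPKM.

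Mcl1, a short-lived anti-apoptotic protein, followed the opposite course. In vivo levels were 1.34, 0.269 and 2.10 RPKM at the 1-cell stage and 4.89, 0.421 and 10.1 at the 2-cell stage. They were 38.1, 25.4 and 42.3 RPKM at the 4-cell stage and 68.7, 78.1 and 56.6 at the 8-cell stage. The 2-cell and 4-cell ranges did not overlap. NTC 4-cell embryos held 160, 145 and 116 RPKM and NTM 4-cell embryos 87.2, 110 and 79.6, so that every NT library at this stage lay above every in vivo library. By the blastula, in vivo embryos held 48.4, 32.5 and 18.6 RPKM, NTC embryos 54.8, 59.4 and 58.7, and NTM embryos 56.3, 85.7 and 42.5. Mcl1 was the only member above 0 in all 60 libraries.

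Bcl2l1, the gene of Bcl-xL, was a second anti-apoptotic transcript of the early embryo. NTC 1-cell embryos held 47.5, 44.5 and 42.4 RPKM and in vivo 1-cell embryos 22.9, 35.1 and 32.5. NTM 1-cell embryos held 2.70, 6.91 and 3.95 RPKM, below every library of the other 1-cell groups, and then 66.2, 36.6 and 54.3 at the 2-cell stage. In vivo 2-cell embryos were uneven, with 41.2, 36.1 and 2.47 RPKM. From the 4-cell stage on no embryo library exceeded 10.2 RPKM, and all 3 in vivo blastulas were at 0. Bcl2, the founding member, was above 0 in 13 of 54 embryo libraries and never above 0.776 RPKM. It was at 0 in all CCs and reached 1.26 RPKM in a MEF library.

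**Figure D1:**
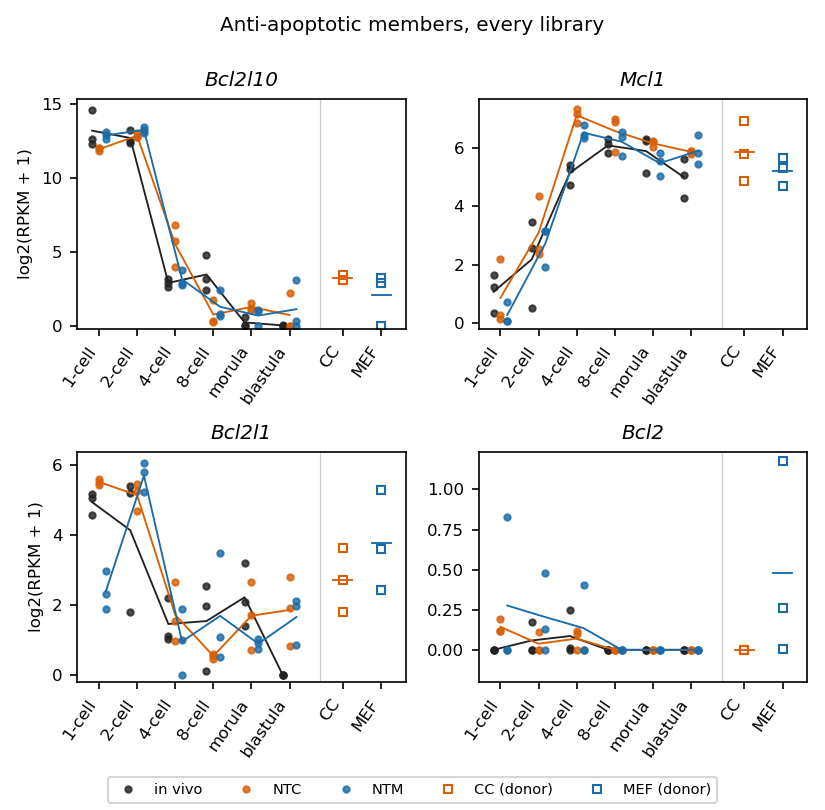
Level of the 4 anti-apoptotic members as log2(RPKM + 1) by stage; points are libraries (3 per group), lines join group means and squares are donor cells, and each panel has its own scale. Bcl2l10 drops and Mcl1 climbs after the 2-cell stage in each embryo type, and the 3 NTM 1-cell libraries are low for Bcl2l1.

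Since RPKM is per length, the anti-apoptotic members were set against each other. Even coverage was not tested for these members, whose lengths ran from 1220 (Bcl2l10) to 9157 bases (Bcl2). The shares are thus of RPKM and not of molecules. Of their summed RPKM, Bcl2l10 made up 98.7% or more in each of the 18 1-cell and 2-cell libraries. Mcl1 took over as the main transcript at the 4-cell stage, with 79.7% ± 7.56 (SD, n = 3) in in vivo embryos, 71.7% ± 20.1 for NTC and 90.7% ± 0.947 for NTM. In NTC 4-cell embryos Bcl2l10 still held 27.0% ± 19.5, and the spread among the 3 libraries was wide (9.21% to 47.8%). In blastulas Mcl1 made up 90.1% or more in all libraries but an NTM library at 88.9%. In MEFs it was 65.8% ± 18.9, most of the rest being Bcl2l1.

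**Figure D2:**
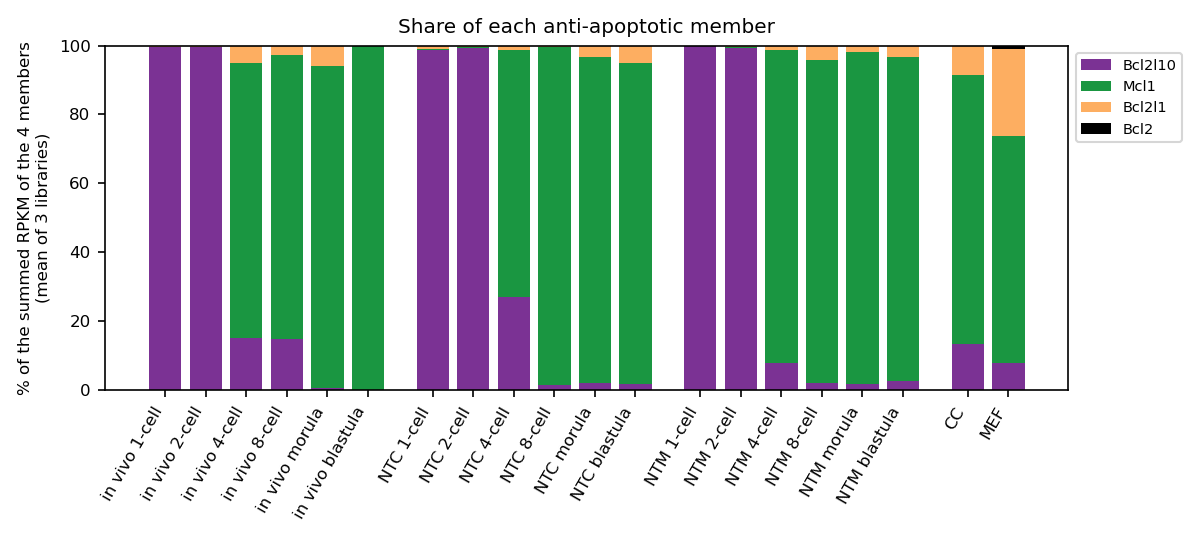
Share of each anti-apoptotic member in the summed RPKM of the 4, in percent, as the mean of 3 libraries per group. Bcl2l10 fills the bars of the 1-cell and 2-cell stages and Mcl1 most of the later ones, with a Bcl2l10 share of 27.0% left in NTC 4-cell embryos.

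Among the effectors, Bax was present and Bak1 nearly absent from embryos. Bax held 7.27, 5.45 and 13.7 RPKM in in vivo 1-cell embryos and 3.96, 12.2 and 0 at the 2-cell stage. NT 2-cell embryos held at most 1.35 RPKM. At the 4-cell stage the levels were 42.3, 59.9 and 49.9 RPKM in vivo, 9.28, 64.7 and 14.5 (NTC) and 113, 91.9 and 56.5 (NTM), so the NTC libraries were spread on both sides of the in vivo range. Donor cells held more than any embryo library: 153, 294 and 215 RPKM in CCs and 318, 181 and 198 in MEFs. Bak1 was above 0 in 13 of 54 embryo libraries, with 1.02 RPKM at most, and in all 6 donor libraries, with 0.527 to 3.70 RPKM. Exons of Bak1 overlap those of a gene on the opposite strand, and with reads that carry no strand the origin of reads in the overlap is uncertain. In GENCODE M21, Bax shares 192 of its 1576 exon bases with Gm45808, a gene on the same strand that has no values here. The part of Gm45808 in the Bax values was not tested.

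The 4 BH3-only members had 4 different courses. Bik was an early transcript, with 73.2, 13.1 and 12.8 RPKM in in vivo 1-cell and 14.8, 20.3 and 1.15 in 2-cell embryos. NTM embryos held 11.6, 0.143 and 2.31 RPKM at the 1-cell stage and 88.5, 31.4 and 37.4 at the 2-cell stage. From the 4-cell stage on it was at 3.25 RPKM or less, except for 19.1 RPKM in the first NTC 8-cell library, whose other 2 libraries were at 0. MEFs were at 0 and CCs at 0.0284 RPKM at most. Bcl2l11, which binds all the anti-apoptotic proteins, was the most widely detected of the 4: its group means in embryos ran from 0.502 (in vivo blastula) to 11.2 RPKM (in vivo 2-cell), and it was above 0 in 53 of 54 embryo libraries.

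Bid, the BH3-only protein that caspase-8 cleaves, was at 0 in all in vivo 1-cell embryos and at 21.7, 11.5 and 13.7 RPKM in in vivo 4-cell embryos. At the 8-cell stage in vivo embryos held 1.52, 0.394 and 1.12 RPKM, NTC embryos 40.7, 21.6 and 38.9 and NTM embryos 9.26, 8.24 and 2.84. The 3 groups did not overlap at this stage. MEFs held 20.4, 15.6 and 14.4 RPKM and CCs at most 0.0226. Bad, which neutralises Bcl-xL and Bcl2, was at 0 in all in vivo 2-cell embryos and at 22.3, 24.0 and 31.1 RPKM in in vivo 4-cell embryos. NTC 4-cell embryos held 6.42, 1.39 and 2.87 RPKM and NTM 4-cell embryos 3.55, 3.93 and 1.27, all below the in vivo range. At later stages all 3 types lay between 0.233 and 8.08 RPKM. In GENCODE M21, exons of Bid share 628 bases with Bcl2l13 and those of Bad 524 bases with Gpr137, both on the opposite strand, so reads there are uncertain. Bcl2l13 held 10.9, 4.95 and 1.86 RPKM in in vivo and 22.3, 20.2 and 10.5 in NTC 8-cell embryos, and Gpr137 0.487 to 3.60 in in vivo, 0.0379 to 0.488 in NTC and 0.249 to 0.739 in NTM 4-cell embryos. Their part in the Bid and Bad values was not tested.

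**Figure D3:**
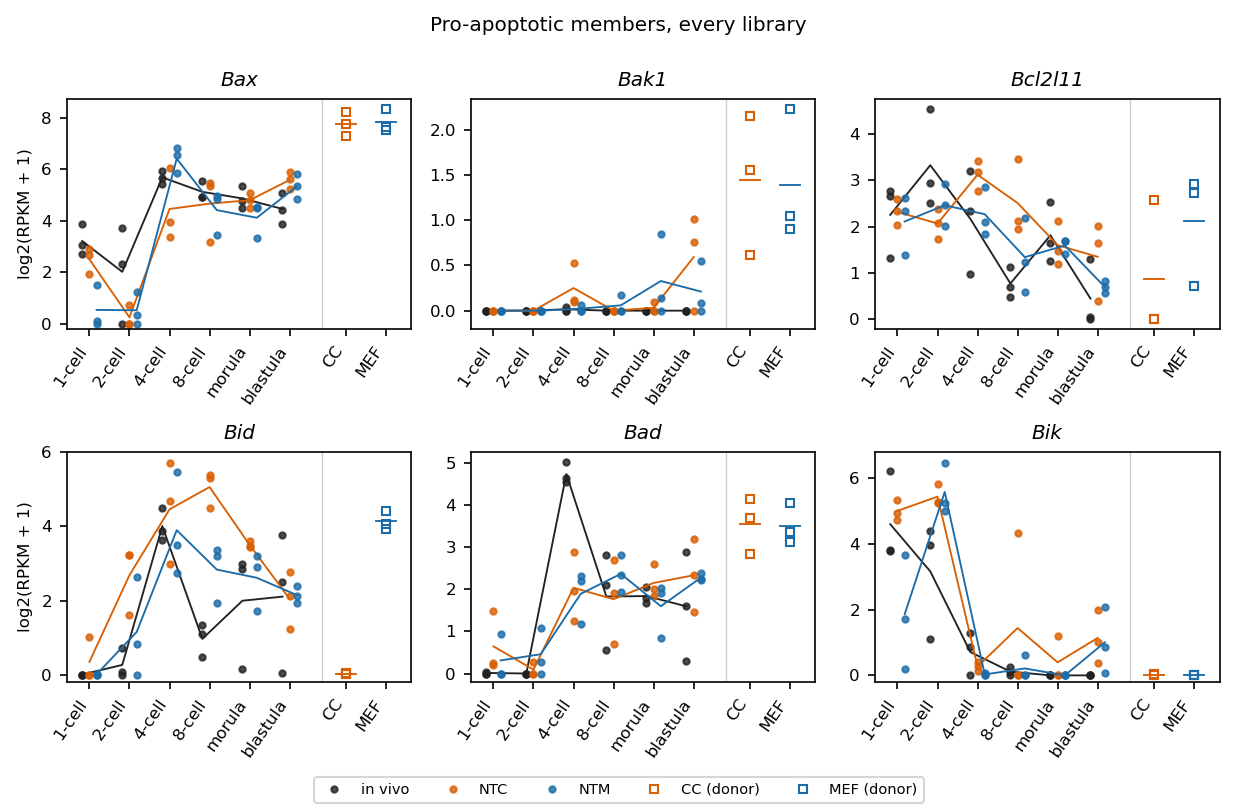
Level of the 2 effectors and the 4 BH3-only members as log2(RPKM + 1) by stage; points are libraries (3 per group), lines join group means, squares are donor cells and each panel has its own scale. Bad peaks in in vivo 4-cell embryos alone, and Bid stays high in NTC 8-cell embryos.

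The question of how each embryo type moves between stages was tested with limma on log2(RPKM + 1) over all genes whose mean RPKM in the libraries compared reached 0.5, with Benjamini-Hochberg adjustment over all of them. A gene was called at an adjusted p under 0.05 and a log2 difference of at least 1 in size, and differences are given with their standard error. Between 2-cell and 4-cell in vivo embryos 8 members were tested, 4 rose and 2 fell, against 52.2% of all genes called (31.4% higher, 20.8% lower). Bad rose by 4.73 ± 0.34 (adjusted p = 5.5e-05), Bid by 3.75 ± 0.41 (0.000283), Bax by 3.67 ± 0.87 (0.0102) and Mcl1 by 2.97 ± 0.74 (0.0125). Bcl2l10 fell (-9.78 ± 0.34, 1.77e-05), as did Bik (-2.46 ± 0.88, 0.0499). Since all in vivo 2-cell libraries were at 0 for Bad, its mean at the 4-cell stage was at least 240-fold higher by the limit of 3 reads per library. Bcl2l1 differed by -2.68 ± 0.97 and missed the threshold (adjusted p = 0.0515). The Mcl1 call was lost without in vivo 4-cell replicate 1 or 3 (adjusted p up to 0.0606), that of Bax without 4-cell replicate 2 (0.0520), and that of Bik without any of the 4-cell libraries or 2-cell replicate 1 or 2 (up to 0.175).

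The promoters of the 4 members that rose together at this transition are shown because they can be compared by sequence, although no measurement of binding or chromatin was made. Each is the 250 bases before the RefSeq start on build GRCm38.p6, written 5′ to 3′ along the gene, with GC boxes (GGGCGG, or CCGCCC on the other strand) in capitals. They lie at chr3:95658471-95658720 (Mcl1, plus strand), chr7:45466899-45467148 (Bax, minus strand), chr6:120916825-120917074 (Bid, minus strand) and chr19:6941611-6941860 (Bad, plus strand, the first of 2 listed starts).
Mcl1 promoter: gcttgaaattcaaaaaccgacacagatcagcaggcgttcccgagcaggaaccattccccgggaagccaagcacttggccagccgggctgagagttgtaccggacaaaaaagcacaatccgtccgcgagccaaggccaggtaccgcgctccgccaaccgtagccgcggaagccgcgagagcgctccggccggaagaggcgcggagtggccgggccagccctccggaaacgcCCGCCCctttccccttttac
Bax promoter: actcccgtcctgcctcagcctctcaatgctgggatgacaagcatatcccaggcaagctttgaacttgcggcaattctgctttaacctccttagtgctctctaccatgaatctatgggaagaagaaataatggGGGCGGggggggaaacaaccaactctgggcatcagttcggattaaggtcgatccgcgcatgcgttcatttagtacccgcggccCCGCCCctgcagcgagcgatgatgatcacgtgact
Bid promoter: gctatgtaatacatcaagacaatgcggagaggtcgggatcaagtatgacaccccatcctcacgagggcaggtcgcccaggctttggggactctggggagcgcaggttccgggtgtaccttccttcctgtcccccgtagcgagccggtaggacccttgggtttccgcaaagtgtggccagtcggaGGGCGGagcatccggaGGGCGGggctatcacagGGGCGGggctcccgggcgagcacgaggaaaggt
Bad promoter: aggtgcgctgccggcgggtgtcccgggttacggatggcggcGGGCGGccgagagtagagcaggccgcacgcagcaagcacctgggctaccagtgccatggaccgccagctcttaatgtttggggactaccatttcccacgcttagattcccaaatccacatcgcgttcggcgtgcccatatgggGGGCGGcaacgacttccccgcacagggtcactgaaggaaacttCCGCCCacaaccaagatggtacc
The Mcl1 window holds 1 GC box, the Bax window 2 and the Bid and Bad windows 3 each, and none holds CCAAT or TATAAA on either strand. Of 32851 windows of all listed starts, 32.74% hold a GC box, 33.85% CCAAT and 12.37% TATAAA in windows of the same length, both strands searched. The windows are 54.0% to 64.4% G and C, against a median of 52.4% over all windows. The GC box does not set these 4 members apart: the windows of the 2 Bcl2l11 starts hold 3 and 2, although that gene was not called here. The second Bad start holds none. The Bcl2 window holds 7, but Bcl2 was below the limit for testing. The windows of Bcl2l1 and Bak1 hold none.

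NT embryos made the same transition with partly the same calls. In NTC embryos 3 of 8 members tested rose and 3 fell (all genes: 36.6%; 16.4% higher, 20.1% lower). Mcl1 rose by 4.04 ± 0.56 (adjusted p = 0.00102), Bax by 4.21 ± 0.72 (0.00255) and Bad by 1.94 ± 0.56 (0.0258), while Bcl2l10 (-7.33 ± 0.60), Bik (-5.18 ± 0.44) and Bcl2l1 (-3.42 ± 0.54) fell. In NTM embryos 2 rose and 3 fell (all genes: 26.4%; 12.1% higher, 14.3% lower). Bax rose by 5.89 ± 0.64 (0.000714) and Mcl1 by 3.79 ± 0.60 (0.00290), while Bcl2l10 (-10.09 ± 0.43), Bik (-5.56 ± 0.65) and Bcl2l1 (-4.74 ± 0.69) fell. Bid differed by 1.78 ± 0.77 in NTC embryos (adjusted p = 0.101) and by 2.75 ± 0.96 in NTM (0.0651), below the threshold. Bad differed by 1.43 ± 0.65 in NTM embryos (0.141). The NTC call of Bad was lost without 2-cell replicate 2 or 3 or 4-cell replicate 1 or 3 (adjusted p up to 0.0854).

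Fewer members moved at the other transitions. Between 4-cell and 8-cell in vivo embryos Bid (-3.05 ± 0.43, adjusted p = 0.00107) and Bad (-2.91 ± 0.58, 0.00538) fell, where 43.7% of all genes were called, 39.3% of all genes being lower, and the median gene differed by -1.05. After median-ratio scaling, which moved that median to -0.16 and the share of higher genes among the called ones from 10.1% to 42.9%, the differences were -1.99 for Bid and -1.72 for Bad, and Bad was no longer called (adjusted p = 0.0721). Between 1-cell and 2-cell NTM embryos (9.4% of all genes called) Bcl2l1 rose by 3.31 ± 0.47 (adjusted p = 0.00466), Bik by 3.73 ± 0.84 (0.0289) and Mcl1 by 2.46 ± 0.62 (0.0411). In NTC embryos (13.5%) Bax fell (-2.25 ± 0.47, 0.0159) and Bid rose by 2.34 ± 0.59 (0.0309). Of these first-cleavage calls, that of Bcl2l1 held without any single library. Those of Mcl1 and Bid were lost without 5 of 6 libraries (all but NTM 2-cell replicate 3 and NTC 2-cell replicate 2, adjusted p up to 0.186 and 0.141). That of Bik was lost without NTM 1-cell replicate 2 or 3 or 2-cell replicate 1 or 2 (0.131), and that of Bax without NTC 1-cell replicate 2 or 3 (0.0947).

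limma called no member in the other transitions. These were in vivo embryos between the first stages (0% of all genes called), from the 8-cell stage to the morula (0.0116%) and from the morula to the blastula (0.801%), with an unadjusted p under 0.05 in 2 of 19 member tests. In NTC embryos they were the 3 transitions after the 4-cell stage (0.0564%, 0% and 7.16% of all genes), with 4 of 24, and in NTM embryos the same 3 (0.363%, 0% and 4.22%), with 3 of 22. Bcl2l10 between the in vivo 8-cell stage and morula differed by -3.23 ± 0.74 (adjusted p = 0.136).

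The comparison of each NT group with in vivo embryos of the same stage asks where reprogrammed embryos depart from fertilised ones. At the 4-cell stage Mcl1 was higher and Bad lower in both NT groups. In NTC embryos Mcl1 was higher by 1.98 ± 0.29 (adjusted p = 0.00136), Bcl2l10 higher by 2.60 ± 0.64 (0.0163) and Bad lower, at -2.70 ± 0.48 (0.00346), 3 of 7 members tested, against 27.8% of all genes (7.4% higher, 20.4% lower). In NTM embryos Mcl1 was higher by 1.38 ± 0.37 (0.0342) and Bad lower, at -2.84 ± 0.51 (0.00785), 2 of 7, against 21.1% of all genes (3.33% higher, 17.8% lower). Both comparisons use the same 3 in vivo libraries. With the 6 NT libraries set against them, Mcl1 was higher by 1.68 ± 0.29 (0.00167) and Bad lower, at -2.77 ± 0.49 (0.00200), where 26.6% of all genes were called. The median gene differed by -0.39 (NTC) and -0.69 (NTM). Scaling by median ratios moved these medians to -0.03 and -0.11 and the share of higher genes among those called from 26.6% to 41.7% and from 15.8% to 37.7%. The differences were then 2.44 and 2.14 for Mcl1, and -2.28 and -2.13 for Bad. The NTM call of Mcl1 was lost without any in vivo 4-cell library or NTM 4-cell replicate 2 (adjusted p up to 0.115). It was also lost in a joint fit of all groups and with the replicate number as a block (up to 0.0778). The NTM call of Bad was lost without in vivo 4-cell replicate 3 (0.0517), and the NTC call of Bcl2l10 without any in vivo 4-cell library (0.0769).

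**Figure D4:**
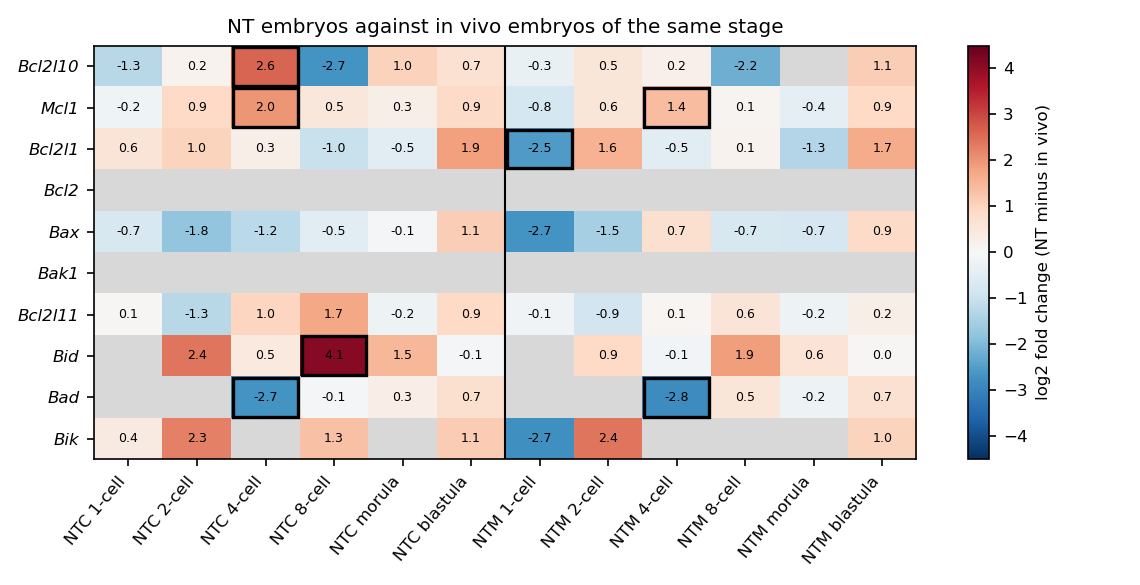
Log2 difference (NT minus in vivo, log2(RPKM + 1) scale) of the 10 members at each stage, for NTC (left) and NTM (right) embryos. Black frames mark the 7 called differences and grey cells the members under the limit for testing, and the 4-cell columns hold 5 of the 7 frames.

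Whether a transition itself differed from that of in vivo embryos was tested by the interaction of stage and embryo type. The climb of Bad after the 2-cell stage was smaller than in vivo in NTC embryos (-2.79 ± 0.62, adjusted p = 0.00997, 14.3% of all genes called) and in NTM embryos (-3.30 ± 0.68, 0.00918, 9.91%). At the next transition the interaction of Bad was 3.38 ± 0.83 in NTM embryos (0.0139, 18.7%) and 2.63 ± 0.94 in NTC embryos (0.0673). In NTC embryos, at that transition, the interaction was 3.65 ± 0.86 for Bid (0.00997) and -5.31 ± 1.05 for Bcl2l10 (0.00348), where 19.5% of all genes were called. The median gene's interaction there was 0.88 in both NT groups, and after median-ratio scaling that of Bad in NTM embryos was 2.48 and no longer called (adjusted p = 0.0862). The other 6 interactions had no called member (0.0256%, 0% and 0.236% of all genes in NTC, 0.204%, 0.0335% and 0.647% in NTM embryos), with an unadjusted p under 0.05 in 6 of 22 NTC and 4 of 21 NTM member tests by limma.

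At the 8-cell stage Bid was higher in NTC than in in vivo embryos by 4.10 ± 0.58 (adjusted p = 0.0136), the single member called where 1.46% of all genes were. The values of all 3 NTC libraries lay above those of all in vivo libraries, and the call was lost without in vivo 8-cell replicate 2 or any NTC 8-cell library (adjusted p up to 0.0934, difference 3.86 to 4.39). In NTM embryos Bid differed by 1.87 ± 0.60 (0.132, 2.02% of all genes called). Over both NT groups it was higher by 2.99 ± 0.48 (0.00773, 3.61%). NTM minus NTC gave -2.23 ± 0.53 (0.139).

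At the 1-cell stage the 2 NT groups differed from each other. NTM embryos were lower than NTC embryos by -3.12 ± 0.31 for Bcl2l1 (adjusted p = 0.000408), -3.15 ± 0.73 for Bik (0.0160) and -1.96 ± 0.49 for Bax (0.0214), 3 of 7 members tested, where 19.8% of all genes were called and 14.2% were lower. Bcl2l10 was higher in NTM embryos by 0.94 ± 0.15 (0.00332), under the limit of 1. Against in vivo embryos Bcl2l1 was lower in NTM embryos, at -2.55 ± 0.47 (0.0399, 1.28% of all genes called), whereas Bax at -2.67 ± 0.63 (0.0935) and Bik at -2.75 ± 0.96 (0.248) missed the threshold. The difference of Bcl2l1 between NT groups was called without any single library. The call against in vivo embryos was lost without each library but in vivo 1-cell replicate 1 (adjusted p up to 0.203). Against NTC embryos, Bax lost its call without NTC 1-cell replicate 2 or 3 or NTM 1-cell replicate 1 or 3 (0.0894), and Bik without any NTC 1-cell library (0.0651). The 6 oocyte markers summed to 2807 to 2966 RPKM in NTM, 1571 to 1899 in NTC and 676 to 2152 in in vivo 1-cell embryos, and genes above 0 numbered 12097 to 12346, 14021 to 14270 and 9491 to 12593. Their part in these differences was not tested.

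The remaining comparisons of NT with in vivo embryos held no called member in limma: NTC at the 1-cell stage, 2-cell stage, morula and blastula (1.16%, 0.152%, 0.0321% and 9.46% of all genes), NTM at the 2-cell stage, 8-cell stage, morula and blastula (0.141%, 2.02%, 0.168% and 0.746%), with an unadjusted p under 0.05 in 6 of 28 and 4 of 28 member tests. Pooled NT embryos held none at the 1-cell stage, 2-cell stage and morula (3.82%, 0.338% and 0.693%), with 5 of 20. NTM against NTC embryos held none after the 1-cell stage (0%, 0%, 0.0507%, 0% and 0%), with 3 of 36. Among blastulas Bcl2l1 was higher in pooled NT embryos by 1.75 ± 0.52 (adjusted p = 0.0388, 18.5% of all genes called). The 6 NT blastulas held 0.790 to 6.01 RPKM and the 3 in vivo blastulas 0, which puts the NT mean at least 36.4-fold higher by the limit of 3 reads per library. The median gene was also higher in NT blastulas, by 0.79, and the part of the lower gene number of in vivo blastulas in this call was not tested. The call was lost without any in vivo blastula or replicate 1 or 2 of either NT group (adjusted p up to 0.0795).

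The comparison with donor cells asks how far the levels in NT embryos lay from those of the nucleus donors. Over the 6 stages, NTC embryos differed from CCs in 25 of 51 member tests (11 higher, 14 lower), where 50%, 37.1%, 24.4%, 21.8%, 29.6% and 24.2% of all genes were called from the 1-cell stage to the blastula. NTM embryos differed from MEFs in 21 of 51 (3 higher, 18 lower), where 55.2%, 39.5%, 28.5%, 42.3%, 41.9% and 30.8% were. Bax was lower than in the donor cell in all 12 comparisons, with differences of -2.17 ± 0.35 (blastula) to -7.50 ± 0.45 (2-cell) from CCs and -1.42 ± 0.42 (4-cell) to -7.30 ± 0.50 (2-cell) from MEFs. Of all genes, 20.8%, 18.5%, 14.1%, 13.8%, 18% and 14.3% were lower in NTC embryos than in CCs, and 29.9%, 25.2%, 20%, 30.2%, 31.9% and 19.8% lower in NTM embryos than in MEFs. At the 4-cell stage the Bax call was lost without NTC replicate 1 or 3 (adjusted p up to 0.0610), and in NTM embryos without any MEF library or NTM replicate 2 or 3 (0.114), and also with no filter, a joint fit or median-ratio scaling (adjusted p up to 0.117). The Bax call of NTC 8-cell embryos was lost with no filter (0.0504). Bid set the donors apart from each other: it was higher in MEFs than in CCs by 4.12 ± 0.65 (0.00677), the single member called of 8 tested, where 6.29% of all genes were called. Accordingly Bid was higher in NTC embryos than in CCs from the 2-cell stage to the blastula, but lower in NTM embryos than in MEFs at the 1-cell stage, 2-cell stage, morula and blastula. Of these, the NTC blastula call was lost without any CC library or NTC replicate 1 or 2 (adjusted p up to 0.09996), the NTM 2-cell call without MEF replicate 1 or NTM replicate 2 (0.0544), and the NTM morula call without any MEF library or NTM replicate 2 or 3 (0.0862). The NTM morula call of Bid (-1.53) was also lost with no filter on low values, in a joint fit of all groups and with median-ratio scaling, where the difference was -0.53 (adjusted p = 0.378). The NTC blastula call of Bid was also lost with no filter and with the replicate number as a block (adjusted p up to 0.0944). Bcl2l10 was higher than in the donor cell at the 1-cell and 2-cell stages, by 8.70 and 9.62 for NTC and by 10.81 and 11.18 for NTM, and these 4 calls held without any single library. Bak1 was at 0 in all 6 NT 1-cell embryos. The limma difference was -1.44 ± 0.45 from CCs (adjusted p = 0.0394) and -1.39 ± 0.47 from MEFs (0.0421). By the limit of 3 reads per library, the mean of CCs was at least 16.0-fold and that of MEFs at least 21.3-fold higher. Bak1 reached the limit for testing only through the donor cells, so these p-values add no separate support. Both Bak1 calls were lost without any of the 1-cell libraries, and that against CCs also without CC replicate 1 (adjusted p up to 0.0990). Both were lost with the replicate number as a block, and that against MEFs also with median-ratio scaling (adjusted p up to 0.0921).

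The pathway around the members was followed in a list of 52 genes. Between 2-cell and 4-cell in vivo embryos 19 of 40 tested rose and 7 fell, with a median difference of 1.21 against 0.36 over all genes, of which 31.4% rose and 20.8% fell. The largest among other Bcl2 relatives were Bcl2l14 (6.02 ± 0.32) and the effector-like Bok (4.70 ± 0.38). Cycs, which encodes the cytochrome c that starts the apoptosome, rose by 4.43 ± 0.53, the executioner caspase Casp6 by 4.65 ± 0.45, and Mtch2, the mitochondrial receptor of truncated Bid, by 4.51 ± 0.40. Casp8, the initiator caspase of death receptors (-5.64 ± 0.59), and Birc3, an inhibitor of apoptosis protein (-5.50 ± 0.38), fell. In NTC embryos 13 of 40 rose and 7 fell (all genes: 16.4% and 20.1%), and in NTM embryos 7 of 39 rose and 4 fell (all genes: 12.1% and 14.3%).

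At the 4-cell stage 12 of 41 pathway genes were lower and 5 higher in NTC than in in vivo embryos, with a median difference of -0.27 against -0.39 over all genes, and 8 of 40 lower and 2 higher in NTM embryos, with -0.70 against -0.69. Of all genes, 20.4% were lower and 7.4% higher in NTC embryos and 17.8% lower and 3.33% higher in NTM embryos, so the pathway's NTM counts lie near the background. Pmaip1 (Noxa), the BH3-only partner of Mcl1, was among the higher ones. It held 0.115, 0.0761 and 0 RPKM in in vivo 4-cell embryos, 1.70, 28.6 and 30.4 in NTC embryos, and 50.2, 51.3 and 122 in those from MEFs. It was higher by 3.68 ± 0.89 (adjusted p = 0.0150) in NTC and 6.02 ± 0.53 (0.000446) in NTM embryos. Pmaip1 was also higher in MEFs (97.7, 30.3 and 80.3 RPKM) than in CCs (0.101, 0.0722 and 0.0599), by 5.87 ± 0.66. The lower genes included Vdac1, the main channel of the outer membrane, at 49.6, 67.6 and 65.5 RPKM in vivo. Vdac1 held 4.76, 2.80 and 8.49 RPKM in NTC 4-cell embryos and 8.23, 6.84 and 6.73 in NTM ones (-3.37 ± 0.41 and -2.90 ± 0.40). In NTC and NTM embryos the differences were -2.99 ± 0.50 and -2.71 ± 0.45 for Cycs, -3.59 ± 0.66 and -3.44 ± 0.65 for Bcl2l14, and -3.38 ± 0.78 and -2.92 ± 0.74 for Bok. In vivo 4-cell embryos had 13576 to 13932 genes above 0, NTC 10824 to 11929 and NTM 8997 to 10930, and the part of this gap in the lower genes was not tested.

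**Figure D5:**
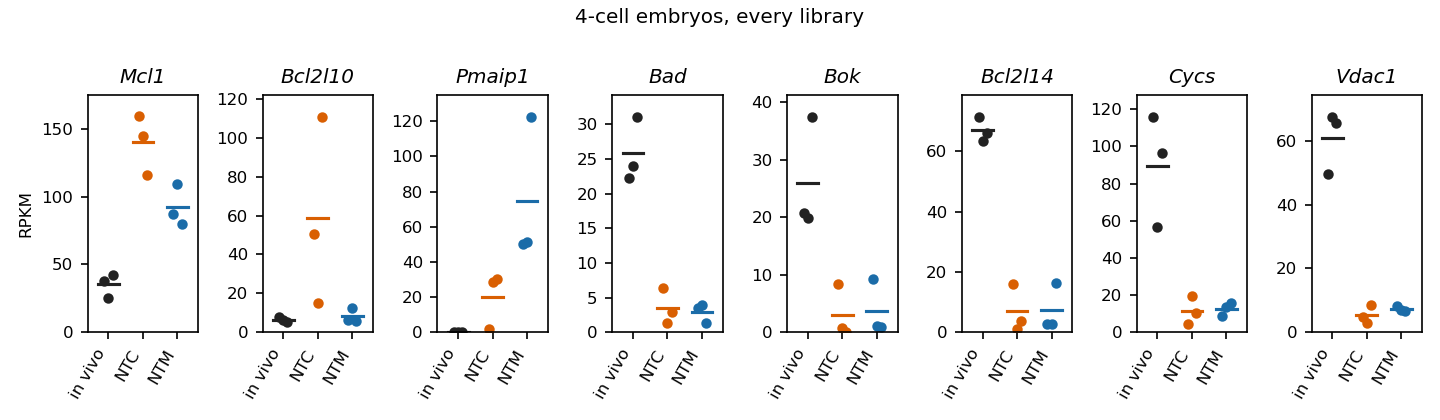
RPKM of 3 members (Mcl1, Bcl2l10, Bad) and 5 other genes of the pathway in 4-cell embryos; points are the 3 libraries of each group, short lines their means, and each axis starts at 0. Mcl1 and Pmaip1 are higher and Bad, Bok, Bcl2l14, Cycs and Vdac1 lower in both NT groups, and Bcl2l10 is higher in NTC embryos.

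Across the means of the 18 embryo groups most members formed an early and a late set, given here as a description. Bcl2 and Bak1, with embryo group means under 1 RPKM, were left out. Bcl2l11 was in no clear set, with r = 0.57 for Bcl2l10, -0.32 for Mcl1 and 0.06 for Bid. Bcl2l1 and Bik had the highest correlation of log2(RPKM + 1) with each other (r = 0.94), followed by Bcl2l1 with Bcl2l10 and Bcl2l10 with Bik (both 0.87). Mcl1 ran with Bax and Bid (both 0.79) and against Bcl2l10 (-0.88). The points share stages, libraries and depth. Of 17078 genes with a symbol, the closest to Bcl2l10 were Rfpl4, Obox5 and Tcl1b1 (each r = 0.99). Those closest to Mcl1 were Nudt21, Tomm20 and Gm10093 (each 0.98), to Bad were Clpp, Psmc2 and Rpl3-ps1 (0.97), and to Bik were Plcb1, Ntm and Sh3bgrl (0.97). Bcl2l1 was closest to Hipk2, Klf7 and Snhg18 (0.96), Bax to Ncln (0.93), Cystm1 and Mcts1 (both 0.92) and Bid to Snhg17, Kdm5a and Zfp707 (0.93). Bcl2l11 had the loosest neighbours, Kif9 (0.86), Mettl4 and Gm21818 (both 0.85).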

How the data were processed

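Single-embryo libraries had been amplified by tailing and PCR without molecular identifiers. The authors aligned reads with TopHat and counted them with HTSeq, and they deposited RPKM values, which were used as they stand (the submitters' processing notes list mm8 and Bowtie 0.12.2, without a role). Reads on genes were recovered from the RPKM steps. With GENCODE M21 exon lengths all values of 7 members were whole reads within 0.05; for Bax, Bad and Bik the length (869, 2007 and 943 bases) was itself taken from the steps, so their whole reads are no check. That sets the depth, 5294167 to 47830132 reads, and the limits of 3 reads cover counting error only. Folds from these limits use the mean of the other group and leave out the spread of its libraries. Values after ± are standard errors of the fit or, where marked, SDs over libraries. The labels do not say that libraries of a group came from separate animals, so p-values measure the spread between these libraries.

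Groups followed the titles of the samples. limma 3.58.1 (R 4.3.3; lmFit, eBayes with a trend) was fitted to log2(RPKM + 1) for 62 comparisons, over genes whose mean RPKM in the libraries compared reached 0.5, with Benjamini-Hochberg adjustment over all genes tested; a call needs an adjusted p under 0.05 and a log2 difference of at least 1, which understates changes of low genes. The fit was also run on simulated data with normal noise, where changes were planted only in genes well above 0. That run does not cover members near 0. A gene at 0 in all libraries of a group reached the mean of 0.5 RPKM through the other groups alone. Alternatives were a pseudocount of 0.1, no filter, median-ratio scaling, no fold threshold, a joint fit of the 20 groups, the replicate number as a block, and leaving out single libraries. All 10 members are named. Pathway genes are given by counts, with values for up to 6 called genes of a list with the largest differences, and nearest genes are the 3 with the highest r. Of 15 listed relatives 14 were matched, all but Bcl2a1a, and 52 pathway genes were used. Members and lists were chosen with earlier results of these data known. Calculations used Python 3.11.15, numpy 2.4.6 and pandas 2.3.3, and figures matplotlib 3.10.9. Promoters are from RefSeq on GRCm38.p6, where 8 of 10 members matched; the genome of the deposited values was not used.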

Additional observations from a re-analysis of the deposited data

Results flagged for a closer look

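Bad, Bid and Bcl2l10 were listed because a stage transition differed between NT and in vivo embryos in the interaction test (limma). From the 2-cell to the 4-cell stage Bad differed by -2.79 in NTC (adjusted p = 0.00997) and by -3.30 in NTM embryos (0.00918). From the 4-cell to the 8-cell stage Bad differed by 3.38 in NTM (0.0139), and Bid by 3.65 (0.00997) and Bcl2l10 by -5.31 (0.00348) in NTC embryos. Both NT groups were set against the same in vivo libraries, and the 2 transitions share the 4-cell libraries. With 3 libraries a group, single libraries could not be tested as outliers.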

How the results depend on the processing

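None of the 90 called member differences turned its direction in 1028 alternative values: 872 stayed past the threshold and 156 did not, and 55 differences were called under every alternative run. Without a filter on low values, NTC transitions held 5 called members in place of 8, NTC against in vivo 2 in place of 4 and NTM against NTC 1 in place of 3. Of NTM against in vivo, 1 fit over all groups called 5 in place of 3 and the replicate block 1, and both lost Mcl1 at the 4-cell stage. The interaction of NTM with that 1 fit gave 5 in place of 2. Median-ratio scaling gave 8 in place of 4 for pooled NT embryos and 5 in place of 3 for the interaction of NTC. Leaving out single libraries gave 6 to 9 calls for in vivo, 6 to 8 for NTC and 6 to 8 for NTM transitions, 3 to 5 for NTC and 1 to 4 for NTM against in vivo, 1 to 4 for NTM against NTC, 23 to 26 for NTC against CC, 17 to 22 for NTM against MEF, 1 to 1 for MEF against CC, 3 to 5 for pooled NT embryos, and 3 to 4 and 2 to 3 for the interactions of NTC and NTM. The value of 1 came without in vivo 4-cell replicate 3 for NTM against in vivo, and without NTC 1-cell replicate 2 or 3 for NTM against NTC. The causes were not tested. Of the interactions, Bad in NTC (2-cell to 4-cell) was lost with a pseudocount of 0.1 (adjusted p = 0.0545) and Bad in NTM (4-cell to 8-cell) with median-ratio scaling (0.0862). With no filter, calls were also lost for Bik (in vivo, 2-cell to 4-cell), Bad (NTC, 2-cell to 4-cell), Bax and Bid (NTC, 1-cell to 2-cell), Mcl1 and Bik (NTM, 1-cell to 2-cell), Bcl2l10 (NTC against in vivo, 4-cell), Bid (NTC against in vivo, 8-cell), Bcl2l1 (NTM against in vivo, 1-cell), Bax and Bik (NTM against NTC, 1-cell) and Bcl2l1 (pooled blastulas). Against CCs they were lost for Mcl1 (2-cell), Bcl2l10 (8-cell and blastula), Bax (8-cell) and Bid (blastula). Against MEFs they were lost for Bcl2l1 and Bax (4-cell) and Bid (morula). Replicate numbers did not pair the libraries: in 46 comparisons the correlation of same-numbered libraries ran from -0.181 to 0.119, and in 0 of them were all 3 above 0.1. With 3 libraries a group and uneven depth, Bcl2 was below the limit for testing in every comparison, and Bak1 in all but those with donor cells.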

Other observations

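Inhibitor of apoptosis genes (Birc2, Birc3, Birc5, Birc6, Xiap and the antagonists Diablo and Htra2) held no called difference between NT and in vivo 4-cell embryos in limma, with an unadjusted p under 0.05 in 0 of 7 NTC and 1 of 7 NTM tests. Birc5 (survivin), which also acts in cell division, held 107, 110 and 120 RPKM in in vivo, 125, 111 and 87.7 in NTC and 89.3, 108 and 92.1 in NTM 4-cell embryos. The death receptor Fas was above 0 in all 3 MEF libraries (5.44, 11.1 and 10.4 RPKM) and at 0 in all CCs (difference 3.27, adjusted p = 0.0258). Birc5 was chosen after its values were seen.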
